A study of Mus musculus with 4 samples.

Results

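The genes described here are 10 genes of the interleukin-1 (IL-1) family, tumour necrosis factor (TNF) and inflammasome pathways in mouse lung tumours with and without CD109, a cell surface protein related to alpha-2-macroglobulin that takes part in TGF-beta signalling. They are the ligands Il1a, Il1b, Il18, Il33 and Tnf, the antagonist Il1rn, the receptors Il1r1 and Il1rl1, the inflammasome sensor Nlrp3 and the prostaglandin synthase Ptgs2. All array probes annotated to a transcript of these genes were taken, which gave 16 of 56605 probes and 10 of 23787 genes with a symbol. A probe was tested if both arrays of a genotype, either one, read it well above background. This held for 14 of the 16 probes, of which 13 were well above background on all 4 arrays. Both dim probes belong to Il1rl1, and each of the 10 genes kept at least 1 tested probe.

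RNA was measured in 2 lung tumour samples labelled CD109-/- and 2 labelled CD109+/+. All 4 came from KP mice on the C57BL/6J strain, a lung adenocarcinoma model in which tumours start where Cre recombinase acts. In every sample an adenovirus with Cre had been given through the trachea 88 to 92 days before RNA was taken, and ages are not stated in the labels. The labels do not say which part of Cd109 was removed or in which cells. CD109-/- replicate 1 was male, while CD109-/- replicate 2 and both CD109+/+ samples were female, so for that array sex and sample cannot be told apart. Whether replicates were separate animals is not stated, and the p-values below therefore measure only the spread between these samples. An exact permutation of the 2 and 2 labels, two-sided, reaches a p of 0.333 at the lowest.

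A single-colour Agilent array was used per sample. The array's 75th percentile was a signal of 677 and 688 on the CD109-/- arrays and 557 and 669 on the CD109+/+ arrays, and 64.3% to 67.0% of spots were well above background on each. With 4 arrays in all, precision is limited by their number. Levels are log2 signals relative to the array's own 75th percentile, so a level of 0 equals that percentile, and levels of different probes are not comparable with each other. Paired values are always in the order replicate 1, replicate 2. Differences are CD109-/- minus CD109+/+ with limma's standard error (SE, n = 2 per genotype), and p-values are limma's, two-sided, with Benjamini-Hochberg adjustment over all 35776 tested probes. The Cd109 probe read -7.98 and -7.87 on the CD109-/- arrays, neither well above background, and -3.70 and -4.66 on the CD109+/+ arrays. Cd109 signal was at least 2.92-fold higher in CD109+/+ tumours (limma adjusted p = 0.299), where the bound sets the CD109+/+ mean against the dimmest signals called well above background on the CD109-/- arrays. Whether this probe lies in the removed part of the gene was not tested. Lung epithelial markers were bright on all arrays. Sftpc, the surfactant protein of alveolar type 2 cells, read 8.92 and 8.79 on the CD109-/- arrays and 9.11 and 8.96 on the CD109+/+ arrays.

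IL-1alpha and IL-1beta signal through the receptor IL1R1 and the adaptor MyD88 to NF-kB, and the antagonist encoded by Il1rn occupies the same receptor without signalling. IL-1beta and IL-18 are made as inactive precursors that caspase-1 cleaves after an inflammasome such as that of NLRP3 assembles, whereas IL-33 is a nuclear alarmin of epithelial and endothelial cells that acts on ST2, the product of Il1rl1. TNF uses its own receptors but also ends in NF-kB, and both cytokines are well known inducers of Ptgs2, which encodes cyclooxygenase-2. In lung tumours these genes are known mainly from myeloid cells, epithelium and stroma.

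Promoter windows from RefSeq (assembly GRCm38.p6, 250 bases before to 50 after the transcript start, 5′ to 3′ on the gene's strand) were available for all 10 genes, 16 windows in all. Those of Il1a, Il1b, Ptgs2 and Tnf, which had high signal on CD109-/- replicate 1, are shown. So is the more downstream of 2 windows of Il33, which had high signal on CD109-/- replicate 2. Windows of Il1rn, Il18 and Il1r1, also highest on replicate 1, and of Il1rl1, also highest on replicate 2, are not shown. Capitals mark matches, on either strand, to the TATA box TATAAA, the AP-1 motif TGANTCA and the C/EBP motif TTNNGNAA; the NF-kB consensus was searched as well.
Il1a, chr2:129309923-129310222, - strand: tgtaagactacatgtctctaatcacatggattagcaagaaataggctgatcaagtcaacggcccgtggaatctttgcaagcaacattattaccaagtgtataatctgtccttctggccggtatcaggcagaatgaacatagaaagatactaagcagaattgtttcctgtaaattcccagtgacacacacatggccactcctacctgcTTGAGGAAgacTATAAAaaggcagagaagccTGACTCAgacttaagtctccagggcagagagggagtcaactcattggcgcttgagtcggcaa
Il1b, chr2:129371090-129371389, - strand: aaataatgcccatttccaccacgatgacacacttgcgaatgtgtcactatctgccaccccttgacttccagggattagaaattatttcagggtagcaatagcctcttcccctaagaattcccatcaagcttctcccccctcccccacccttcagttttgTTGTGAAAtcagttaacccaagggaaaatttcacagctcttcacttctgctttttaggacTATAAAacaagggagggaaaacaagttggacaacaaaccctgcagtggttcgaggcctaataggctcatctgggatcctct
Ptgs2, chr1:150099781-150100080, + strand: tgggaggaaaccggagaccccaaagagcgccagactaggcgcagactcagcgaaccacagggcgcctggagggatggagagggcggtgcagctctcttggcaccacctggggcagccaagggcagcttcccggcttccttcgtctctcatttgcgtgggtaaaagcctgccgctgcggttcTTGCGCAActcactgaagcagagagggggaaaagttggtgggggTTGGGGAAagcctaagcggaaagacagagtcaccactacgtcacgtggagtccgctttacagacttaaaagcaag
Tnf, chr17:35201958-35202257, - strand: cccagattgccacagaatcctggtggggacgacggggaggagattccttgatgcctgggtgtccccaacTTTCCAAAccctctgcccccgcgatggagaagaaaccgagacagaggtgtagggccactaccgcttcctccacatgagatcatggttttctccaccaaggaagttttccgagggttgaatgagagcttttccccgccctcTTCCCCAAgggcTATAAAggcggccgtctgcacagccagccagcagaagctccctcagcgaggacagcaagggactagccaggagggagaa
Il33, chr19:29945540-29945839, + strand: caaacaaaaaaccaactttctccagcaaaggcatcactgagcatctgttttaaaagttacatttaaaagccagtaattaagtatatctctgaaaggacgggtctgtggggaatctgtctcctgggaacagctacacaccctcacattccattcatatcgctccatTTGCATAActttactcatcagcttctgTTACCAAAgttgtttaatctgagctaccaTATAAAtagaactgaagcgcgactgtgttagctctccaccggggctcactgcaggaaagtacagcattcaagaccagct
A TATAAA match began at -32 in Il1a, at -31 in Il1b, at -29 in Tnf and at -29 in Il33, counted in bases from the transcript start, beside 13.6% of 32851 promoter windows of this length that hold a match anywhere. The Ptgs2 window held no TATAAA match and 2 C/EBP matches, TTGCGCAA at -69, which reads the same on both strands, and TTGGGGAA at -25. C/EBP matches are common, at 40.7% of windows. The Il1a window held the AP-1 match TGACTCA at -12, a motif present in 7.81% of windows. An NF-kB consensus match, found in 8.46% of windows, was in none of the 5 windows shown but stood at -186 in 1 Nlrp3 window and at -232 in 1 Il1r1 window. These matches describe the letters of the windows only.

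Across the 10 genes no probe passed the adjusted threshold of 0.05. Signals were higher on average in CD109-/- tumours for 13 of the 14 tested probes, among them all tested probes of Il1a, Il1b, Il1rn, Il18, Il33, Tnf, Il1r1, Il1rl1 and Ptgs2, and only the Nlrp3 probe was lower. Over all tested probes 44.5% had a difference above 0. Of the 14 probes 0 had an adjusted p under 0.05, against 0% of all probes (lowest adjusted p = 0.288), and 1, that of Il1rl1, had an unadjusted p under 0.05 (7.14%), against 6.81% of all probes (3.87% higher and 2.94% lower in CD109-/-). Taking for each gene its brightest tested probe, the median difference over the 10 genes was 0.84, beside 0.00 over all 16444 genes tested in this way. By array, the median over the 10 genes relative to the CD109+/+ mean was 1.05 on CD109-/- replicate 1 and 0.16 on CD109-/- replicate 2. The genotypes did not overlap for 6 of the 14 probes, 5 higher and 1 lower in CD109-/- tumours, beside 37.7% of all probes (16.5% higher and 21.3% lower).

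The 2 CD109-/- tumours differed from each other by more than the genotypes did on 10 of the 14 probes. The share over all probes was not counted for this comparison. A gap between single arrays also varies more than a difference of means, so this count alone does not set these genes apart. The highest of the 4 arrays was CD109-/- replicate 1 for 7 of the 10 genes, beside 28% of all genes. CD109-/- replicate 2 was the highest for Il33 and Il1rl1 and the lowest for Ptgs2, the brighter Tnf probe and Nlrp3, and its Il1a value was not well above background. The gap between the CD109-/- replicates was at least 1 log2 unit for 11 of the 14 probes and that between the CD109+/+ replicates for 1 of them. Over all tested probes such gaps occurred in 11.8% within CD109-/- and in 5.98% within CD109+/+.

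**Figure D1:**
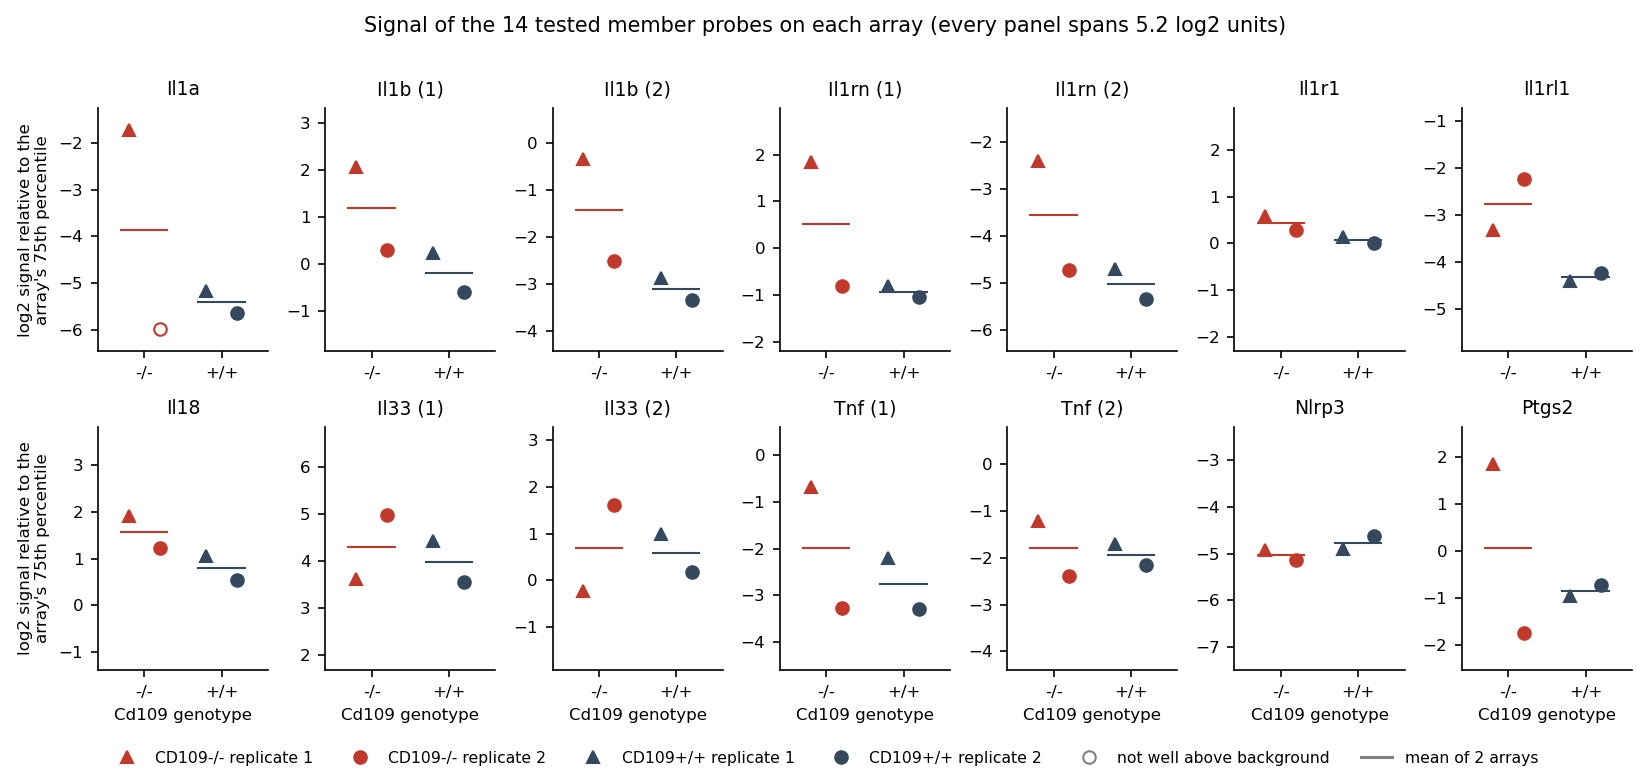
Log2 signal relative to the array's 75th percentile (vertical axis) for each of the 14 tested probes, with CD109-/- arrays in red at the left and CD109+/+ arrays in blue at the right of each panel; triangles are replicate 1, circles replicate 2, bars group means, and an open symbol is not well above background. The red triangle stands far above the other 3 points for Il1a (-1.74), Il1rn (1.84 on its brighter probe) and Ptgs2 (1.86), while the red circle is highest for Il33 (4.99 on its brighter probe) and Il1rl1 (-2.22).

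Il1b, the secreted IL-1 ligand that needs caspase-1 for release, had no overlap between genotypes on either of its probes, although the brighter probe overlapped with scaling to the median. The brighter probe read 2.07 and 0.30 on the CD109-/- arrays and 0.23 and -0.61 on the CD109+/+ arrays. The first of these stood well above the rest, and CD109-/- replicate 2 lay just above CD109+/+ replicate 1. The difference was 1.38 ± 0.66, a 2.60-fold ratio, and did not pass the threshold (unadjusted p = 0.0897, limma adjusted p = 0.762). The dimmer probe read -0.34 and -2.52 on the CD109-/- arrays and -2.89 and -3.35 on the CD109+/+ arrays, a difference of 1.69 ± 0.74 (unadjusted p = 0.0698, limma adjusted p = 0.757). Set against the CD109+/+ mean singly, CD109-/- replicate 1 differed by 2.26 and 2.78 on the brighter and the dimmer probe and CD109-/- replicate 2 by 0.49 and 0.61. Both probes thus gave the same order of the 4 arrays.

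Il1a, the cell-associated IL-1 ligand, lies next to Il1b on chromosome 2. Its single probe read -1.74 and -5.98 on the CD109-/- arrays and -5.16 and -5.64 on the CD109+/+ arrays. The value of CD109-/- replicate 2 was not well above background, so this probe was tested through its CD109+/+ arrays. The lowest signal well above background on that array was -5.65, and taken as a limit it puts the signal on CD109-/- replicate 1 at least 15.1-fold higher than on CD109-/- replicate 2. The difference between genotypes was 1.54 ± 1.37 with overlapping groups (unadjusted p = 0.310, limma adjusted p = 0.855). Alone, CD109-/- replicate 1 differed from the CD109+/+ mean by 3.67, while the limit for CD109-/- replicate 2 lay -0.25 from that mean. With normexp background correction the difference between genotypes was 0.77.

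Il1rn, which encodes the IL-1 receptor antagonist, had its high array in common with Il1a. Its brighter probe read 1.84 and -0.81 on the CD109-/- arrays and -0.80 and -1.04 on the CD109+/+ arrays. CD109-/- replicate 2 lay between the CD109+/+ values, while CD109-/- replicate 1 had 6.27 times the signal of its replicate. The difference was 1.44 ± 0.87 (unadjusted p = 0.158, limma adjusted p = 0.796). On the dimmer probe the values were -2.40 and -4.72 on the CD109-/- arrays and -4.71 and -5.34 on the CD109+/+ arrays, a difference of 1.47 ± 0.79 (unadjusted p = 0.122, limma adjusted p = 0.785), which was 0.47 with normexp. Antagonist and agonists therefore had their highest signal on the same array.

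Il18, the other caspase-1 substrate of the family, varied less between replicates. It read 1.91 and 1.22 on the CD109-/- arrays and 1.05 and 0.53 on the CD109+/+ arrays, with no overlap. The difference was 0.77 ± 0.35, a 1.71-fold ratio (unadjusted p = 0.0785, limma adjusted p = 0.757). Single CD109-/- arrays differed from the CD109+/+ mean by 1.11 and 0.43. With normexp background correction Il18, and no longer Il1rl1, was the gene with an unadjusted p under 0.05.

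Il33, the alarmin, did not separate the genotypes. Its brighter probe read 3.62 and 4.99 on the CD109-/- arrays and 4.42 and 3.55 on the CD109+/+ arrays. CD109+/+ replicate 1 lay between the CD109-/- values and CD109+/+ replicate 2 just below both, and CD109-/- replicate 2 had 2.58 times the signal of CD109-/- replicate 1. The difference was 0.33 ± 0.56 (unadjusted p = 0.585, limma adjusted p = 0.931). The dimmer probe read -0.23 and 1.60 on the CD109-/- arrays and 0.99 and 0.19 on the CD109+/+ arrays, a difference of 0.10 ± 0.67 (limma adjusted p = 0.988). CD109-/- replicate 2 was the highest array on both probes, by 1.01 and 1.02 over the CD109+/+ mean, and CD109-/- replicate 1 differed from that mean by -0.36 and -0.82.

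Tnf, the founding ligand of the TNF family, had 2 probes whose differences were unlike in size. The dimmer probe read -0.69 and -3.27 on the CD109-/- arrays and -2.20 and -3.30 on the CD109+/+ arrays, a difference of 0.76 ± 0.91 (unadjusted p = 0.440, limma adjusted p = 0.897). The brighter probe read -1.22 and -2.38 on the CD109-/- arrays and -1.71 and -2.16 on the CD109+/+ arrays, a difference of 0.14 ± 0.45 (unadjusted p = 0.772, limma adjusted p = 0.968). Both probes put CD109-/- replicate 1 highest and overlapped between genotypes. CD109-/- replicate 2 alone was below the CD109+/+ mean on both, with differences of -0.53 and -0.44, against 2.06 and 0.72 for CD109-/- replicate 1.

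The receptors were read next. Il1r1, the signalling receptor of IL-1alpha and IL-1beta, read 0.58 and 0.28 on the CD109-/- arrays and 0.14 and 0.01 on the CD109+/+ arrays. The groups did not overlap, but the difference of 0.36 ± 0.25 (1.28-fold) was small and did not pass (unadjusted p = 0.205, limma adjusted p = 0.815).

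Il1rl1, the IL-33 receptor ST2, had the lowest p of the 10 genes. Its tested probe read -3.33 and -2.22 on the CD109-/- arrays and -4.41 and -4.24 on the CD109+/+ arrays. Both CD109-/- tumours lay above both CD109+/+ tumours, and CD109-/- replicate 2 was the higher. The difference was 1.55 ± 0.42, a 2.92-fold ratio (unadjusted p = 0.0138, limma adjusted p = 0.623). Single CD109-/- arrays differed from the CD109+/+ mean by 0.99 and 2.10. With normexp the difference was 0.65. A second Il1rl1 probe, annotated to the same transcript record, read -8.10 and -7.94 on the CD109-/- arrays and -7.90 and -8.18 on the CD109+/+ arrays. Another, annotated to a different transcript record, read -7.83 and -7.81 on the CD109-/- arrays and -7.42 and -8.08 on the CD109+/+ arrays. Neither was well above background on any array, so the result for Il1rl1 rested on 1 of its 3 probes.

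Nlrp3, the sensor of the best known inflammasome, was the exception in direction. It read -4.92 and -5.14 on the CD109-/- arrays and -4.91 and -4.63 on the CD109+/+ arrays, a difference of -0.26 ± 0.25 (unadjusted p = 0.350, limma adjusted p = 0.869). The CD109-/- values were lower without overlap, but CD109-/- replicate 1 and CD109+/+ replicate 1 were nearly equal. With the authors' values, quantile normalization or scaling to the median they overlapped. The probe was dim on all arrays, and on CD109-/- replicate 2 the lowest signal well above background was -5.65. With normexp the Nlrp3 difference was -0.15.

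Ptgs2, the inducible prostaglandin synthase downstream of both cytokines, showed the widest spread after Il1a. It read 1.86 and -1.75 on the CD109-/- arrays, the highest and the lowest of the 4, and -0.95 and -0.74 on the CD109+/+ arrays. The signal on CD109-/- replicate 1 was 12.2 times that on CD109-/- replicate 2, a gap reached by 0.436% of tested probes. The difference between genotypes was 0.90 ± 1.16 (unadjusted p = 0.473, limma adjusted p = 0.906). Alone, CD109-/- replicate 1 differed from the CD109+/+ mean by 2.71 and CD109-/- replicate 2 by -0.90.

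**Figure D2:**
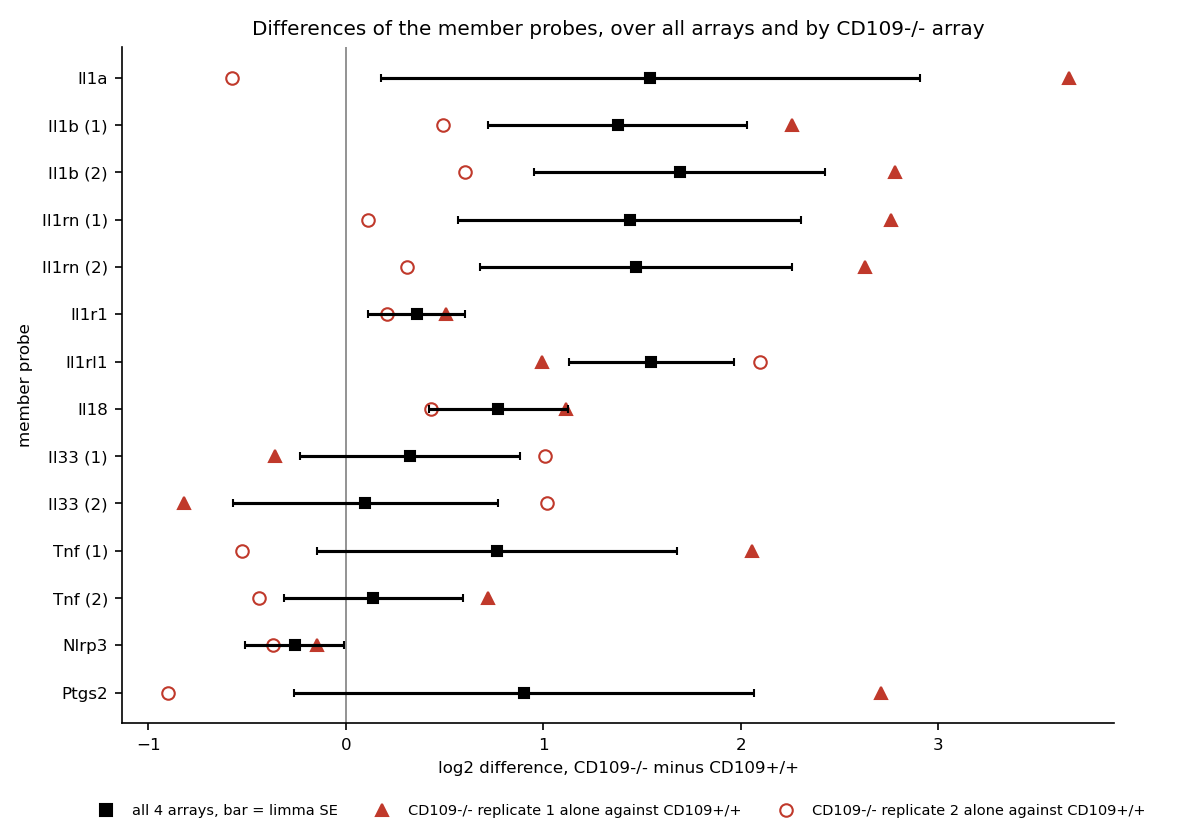
Log2 difference, CD109-/- minus CD109+/+ (horizontal axis), for each tested probe: black squares use all 4 arrays with limma's SE, red triangles CD109-/- replicate 1 alone and open circles CD109-/- replicate 2 alone, each against the mean of both CD109+/+ arrays. The circle of Il1a rests on a value not well above background. Triangles and circles lie on opposite sides of 0 for Ptgs2 (2.71 and -0.90), both Tnf probes and both Il33 probes, and on the same side for Il1b, Il1rn, Il1r1, Il1rl1, Il18 and Nlrp3.

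CD109-/- replicate 2 was the female CD109-/- sample, so its difference from the CD109+/+ mean is also the comparison within females. In that comparison 9 of the 14 probes were higher in CD109-/-, namely those of Il1b, Il1rn, Il1r1, Il1rl1, Il18 and Il33, and the 5 others were those of Tnf, Nlrp3 and Ptgs2, which were lower, and of Il1a, for which there is only a limit. The largest of these differences was 2.10, for Il1rl1, and Ptgs2 stood at -0.90. CD109-/- replicate 1, the male sample, was above the CD109+/+ mean on 11 of the 14 probes, by 0.51 for Il1r1 to 3.67 for Il1a. It was below that mean for both Il33 probes (-0.36 and -0.82) and for Nlrp3 (-0.15). In that comparison sex and genotype cannot be told apart. Each of the 2 comparisons uses a single CD109-/- array and holds no spread within CD109-/-.

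The other genes of each pathway were then counted, each by its brightest tested probe. Of 135 listed genes 122 were tested. Their signal was higher on average in CD109-/- tumours for 96 (78.7%), beside 50.3% of all genes, and 18 (14.8%) had an unadjusted p under 0.05, beside 7.53% of all genes. Of the 18, 17 were higher and 1 lower, beside 5.05% and 2.48% of all genes. The genotypes did not overlap for 51 genes that were higher and 11 that were lower, beside 20.3% and 18.3% of all genes (38.6% in all). Both the 17 and the 51 include Tnfaip6, which passed the filter only through its CD109-/- arrays, so that its direction carries no weight. None of the 122 passed the adjusted threshold, nor did any gene of the array (0%). The highest array was CD109-/- replicate 1 for 61 of the 122 (50%). Without the 10 genes themselves, 87 of 112 were higher and 17 (15.2%) had an unadjusted p under 0.05.

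Among IL-1 family ligands only the 5 described above were tested (median 1.38, and 0.77 with normexp or 0.43 without CD109-/- replicate 1). The IL-36 genes Il1f5, Il1f6, Il1f8 and Il1f9 and the IL-1 family cytokine Il1f10 were too dim for the filter in either genotype. Of 9 receptors and decoys 8 were higher and 1 lower in CD109-/- tumours (median 0.53, and 0.21 without CD109-/- replicate 1). Il1rl1 was the one with an unadjusted p under 0.05 (11.1%), beside 7.53% of all genes. Il1r2, the decoy receptor for IL-1, read 1.41 and -1.06 on the CD109-/- arrays and -0.62 and -1.59 on the CD109+/+ arrays (1.28 ± 0.87, limma adjusted p = 0.814). It thus had the same high array as Il1b, Il1a and Il1rn. The IL-18 receptor chain Il18rap did likewise, at -0.52 and -2.70 on the CD109-/- arrays and -2.30 and -2.25 on the CD109+/+ arrays. Its partner chain Il18r1 differed by 0.53 ± 0.28 and Il18bp, which neutralises IL-18, by 0.59 ± 0.31, both without overlap and with limma adjusted p = 0.781 and 0.779. The shared accessory chain Il1rap differed by 0.28 ± 0.47 and the inhibitory receptor Sigirr by -0.12 ± 0.23. Il1r2, Il1r1, Il1rl2, Il1rl1, Il18r1 and Il18rap follow each other in this order on chromosome 1.

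Of 17 TNF pathway genes 14 were higher and 3 lower, with a median of 0.14 (0.07 if CD109-/- replicate 1 is left out, or 0.27 if CD109+/+ replicate 1 is). The receptors had small differences, with Tnfrsf1a at -0.12 ± 0.23 (its further probe at 0.12) and Tnfrsf1b at 0.31 ± 0.32, and the sheddase Adam17 at 0.03 ± 0.23. The lymphotoxin gene Ltb, a TNF family ligand of lymphocytes, read 0.78 and -0.12 on the CD109-/- arrays and -1.55 and -1.34 on the CD109+/+ arrays. Its difference of 1.77 ± 0.37 had the lowest p of this list (unadjusted p = 0.00477, limma adjusted p = 0.573). The apoptosis inhibitor Birc3 differed by 0.60 ± 0.23 (limma adjusted p = 0.729).

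The inflammasome and pyroptosis list went both ways, with 11 of 21 genes higher and 10 lower and a median of 0.06. That median was 0.28 when CD109-/- replicate 2 was left out, and leaving out CD109+/+ replicate 1 gave 0.26. It was -0.12 with CD109+/+ replicate 2 removed. Casp1, the IL-1beta and IL-18 converting enzyme, read -0.08 and 0.89 on the CD109-/- arrays and -1.22 and -0.19 on the CD109+/+ arrays (1.11 ± 0.50, limma adjusted p = 0.757). Its chromosomal neighbour Casp4, the sensor of intracellular lipopolysaccharide, read 1.43 and 2.02 on the CD109-/- arrays and -0.32 and 0.99 on the CD109+/+ arrays (1.39 ± 0.50, unadjusted p = 0.0393, limma adjusted p = 0.702). Both caspases were highest on CD109-/- replicate 2, unlike Il1b. Mefv, which encodes the sensor pyrin, read -0.57 and -3.06 on the CD109-/- arrays and -3.55 and -4.28 on the CD109+/+ arrays (2.10 ± 0.85, further probe 1.18, limma adjusted p = 0.737). The adaptor Pycard differed by 0.06 ± 0.30, the sensor Aim2 by 0.49 ± 0.29, the pore-forming Gsdmd by -0.49 ± 0.41 and the ATP receptor P2rx7 by -0.39 ± 0.38, with 2 further P2rx7 probes at -0.54 and -0.74.

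In the MyD88 and NF-kB list 24 of 28 genes were higher and 4 lower, with a median of 0.33 (0.16 without CD109-/- replicate 1). Nfkbiz, an atypical IkB protein induced by IL-1, read -0.18 and -0.73 on the CD109-/- arrays and -1.97 and -2.08 on the CD109+/+ arrays. Its difference of 1.57 ± 0.29 (further probe 1.15) had an unadjusted p of 0.00269 and a limma adjusted p of 0.551. The ubiquitin ligase Traf6 differed by 0.58 ± 0.26, the adaptor Myd88 by 0.38 ± 0.24 and the inhibitor Nfkbia by 0.36 ± 0.27, each without overlap between genotypes. The feedback inhibitor Tnfaip3 differed by 0.91 ± 0.56 with overlap.

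Of 17 tested prostanoid genes 14 were higher and 3 lower, with a median of 0.40 (0.62 without CD109-/- replicate 2). Of the 17, 5 higher and 1 lower gene had an unadjusted p under 0.05, beside 5.05% and 2.48% of all genes. The constitutive synthase Ptgs1 differed by 0.30 ± 0.49 and the prostaglandin E synthase Ptges by -0.04 ± 0.24. Ptgis, the prostacyclin synthase, read 0.27 and 0.68 on the CD109-/- arrays and -0.77 and -0.78 on the CD109+/+ arrays (1.25 ± 0.26, unadjusted p = 0.0047, limma adjusted p = 0.573). Ptger2, a receptor for prostaglandin E2, read -2.97 and -3.25 on the CD109-/- arrays and -4.16 and -4.21 on the CD109+/+ arrays (1.07 ± 0.24, limma adjusted p = 0.58). These 2 genes were named for the lowest unadjusted p of the list, which favours close replicates. That they were alike on both CD109-/- arrays follows in part from this choice. The prostaglandin-degrading enzyme Hpgd differed by 1.75 ± 0.64 (unadjusted p = 0.0405) and the receptor Ptger4 by 0.42 ± 0.26. Hpgds, Ptger1, Ptgfr, Ptgdr and Ptgdr2 were too dim to be tested.

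Among genes known to be induced by IL-1 or TNF, 22 of 27 tested genes were higher and 5 lower, with a median of 0.63 (0.40 with normexp). Of the 27, 8 higher and 0 lower genes had an unadjusted p under 0.05, beside 5.05% and 2.48% of all genes. Among the 8, Tnfaip6 was well above background on both CD109-/- arrays and on neither CD109+/+ array. It was thus tested only through the genotype in which it was high, and its direction carries no weight. The median over the list was 1.15 on CD109-/- replicate 1 and 0.34 on CD109-/- replicate 2, each relative to the CD109+/+ mean. Il6, the acute-phase cytokine, read -2.81 and -2.10 on the CD109-/- arrays and -4.53 and -4.02 on the CD109+/+ arrays (1.82 ± 0.35, limma adjusted p = 0.551). The monocyte chemokine Ccl7 read -2.29 and -3.01 on the CD109-/- arrays and -4.42 and -3.99 on the CD109+/+ arrays (1.55 ± 0.35, limma adjusted p = 0.58). Sele, Csf3 and Ptx3 were too dim to be tested.

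**Figure D3:**
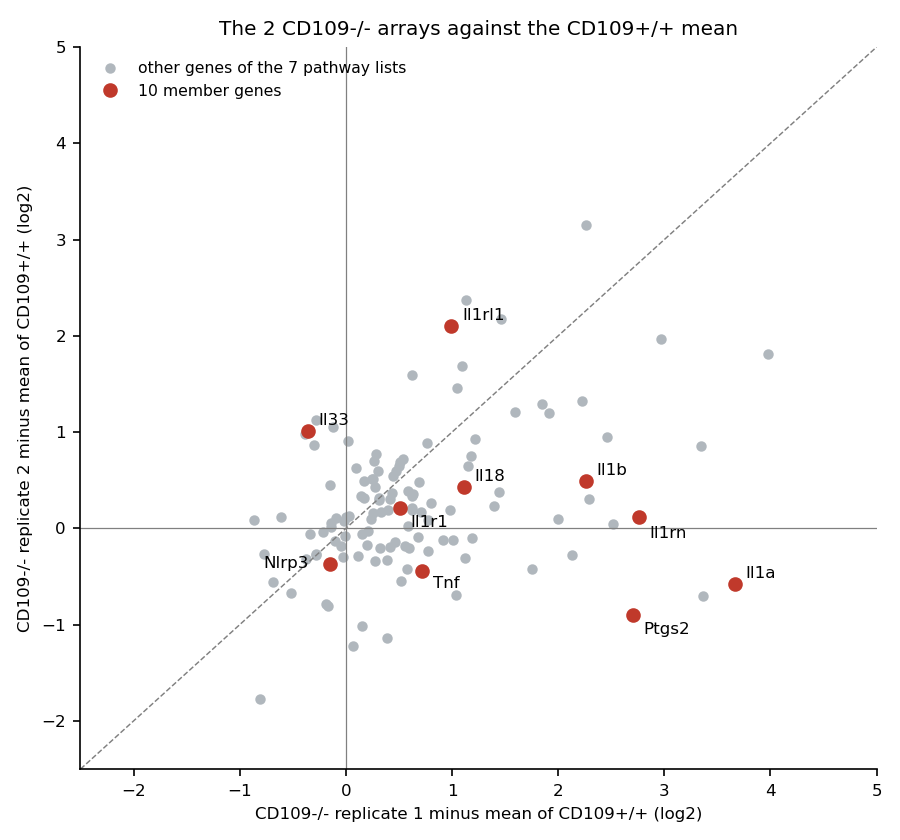
Log2 signal of CD109-/- replicate 1 (horizontal axis) and of CD109-/- replicate 2 (vertical axis), each minus the mean of the CD109+/+ arrays, for the 10 genes in red and the other 112 tested pathway genes in grey, 1 probe a gene; the dashed line marks equal values. Il1a, Ptgs2, Il1rn and Il1b lie far to the right and below the line, Il1rl1 and Il33 above it, and Il1r1 and Nlrp3 near the centre; the vertical position of Il1a rests on a value not well above background.

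In bulk tumour tissue, fewer cells of a type and less RNA per cell cannot be told apart, so cell markers were read beside these genes. Neutrophil markers gave a summed level, in multiples of the array's 75th percentile, of 139.5 and 98.4 on the CD109-/- arrays and of 95.4 and 92.6 on the CD109+/+ arrays. Without Ltf, a granule protein gene left out after the values were seen, the sums were 93.7 and 98.0 on the CD109-/- arrays and 92.2 and 85.9 on the CD109+/+ arrays. Csf3r made up most of these sums, at 62.0 and 70.9 on the CD109-/- arrays and 71.7 and 77.3 on the CD109+/+ arrays. Without overlap, 3 of the 10 tested markers were higher (S100a8, S100a9 and Cxcr2) and 2 lower (Csf3r and Camp), beside 20.3% and 18.3% of all genes. Over the list 5 markers were higher and 5 lower in CD109-/- tumours, with differences between -0.74 (Camp) and 1.82 (Cxcr2), and Ngp was too dim to be tested. Of the 10 tested markers 6 were highest on CD109-/- replicate 1. Macrophage and monocyte markers were higher in CD109-/- tumours for 14 of 15 (median 0.54), with summed levels of 178.6 and 144.4 on the CD109-/- arrays and of 134.8 and 132.1 on the CD109+/+ arrays. As probes are not comparable in level, each such sum follows its brightest probes. Here these went different ways. Lyz2 stood at 37.7 and 27.4 on the CD109-/- arrays and 7.56 and 23.9 on the CD109+/+ arrays. Ly6c2 overlapped between genotypes, and Itgam was lower at 25.2 and 26.9 against 32.9 and 41.4. T cell markers were higher for 5 of 6, summing to 3.82 and 3.35 on the CD109-/- arrays and to 3.25 and 2.95 on the CD109+/+ arrays. Cd4, the 1 lower marker, made up most of these sums, at 1.99 and 1.83 on the CD109-/- arrays and 2.18 and 1.97 on the CD109+/+ arrays. Without overlap 3 of the 6 were higher, beside 20.3% of all genes. Among them were Cd3d (1.63 ± 0.31, limma adjusted p = 0.551) and Cd3g (1.54 ± 0.32, limma adjusted p = 0.573). The part of neutrophils, macrophages, monocytes and T cells in the results for Il1a, Il1b, Il1rn, Il18, Tnf and Ptgs2 was not tested.

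ST2-bearing cells were read beside Il1rl1. All 5 tested markers of group 2 innate lymphoid cells were higher in CD109-/- tumours, though Rora by only 0.03 (further probe -0.01). Of the 5, 4 were highest on CD109-/- replicate 2, the array with the highest Il1rl1. The summed level of the 5 markers was 2.98 and 3.76 on the CD109-/- arrays and 2.25 and 3.32 on the CD109+/+ arrays, so the groups overlapped by that sum. Gata3, a transcription factor on this list, read -2.59 and -2.21 on the CD109-/- arrays and -4.58 and -3.73 on the CD109+/+ arrays. The defining cytokines Il5 and Il13 were not well above background. For mast cells and basophils 1 of 5 tested markers was higher, and the summed level was 19.0 and 29.6 on the CD109-/- arrays and 15.8 and 41.8 on the CD109+/+ arrays. That sum was mostly Hdc, at 14.6 and 28.3 on the CD109-/- arrays and 13.6 and 38.6 on the CD109+/+ arrays. The defining markers Cpa3, Ms4a2, Fcer1a and Cma1 were not well above background. T cell markers, given above, were also higher for 5 of 6. The part of group 2 innate lymphoid cells, T cells, mast cells and basophils in the Il1rl1 result was not tested. Beside Il33, alveolar type 2 and tumour epithelium markers were lower in CD109-/- tumours for 7 of 11 (median -0.18), with summed levels of 1696 and 1520 on the CD109-/- arrays and of 1915 and 1659 on the CD109+/+ arrays. All 6 endothelial markers were higher, with a median of 0.23 and summed levels of 13.0 and 15.7 on the CD109-/- arrays and of 16.1 and 11.3 on the CD109+/+ arrays. Their part in the Il33 values was not tested.

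**Figure D4:**
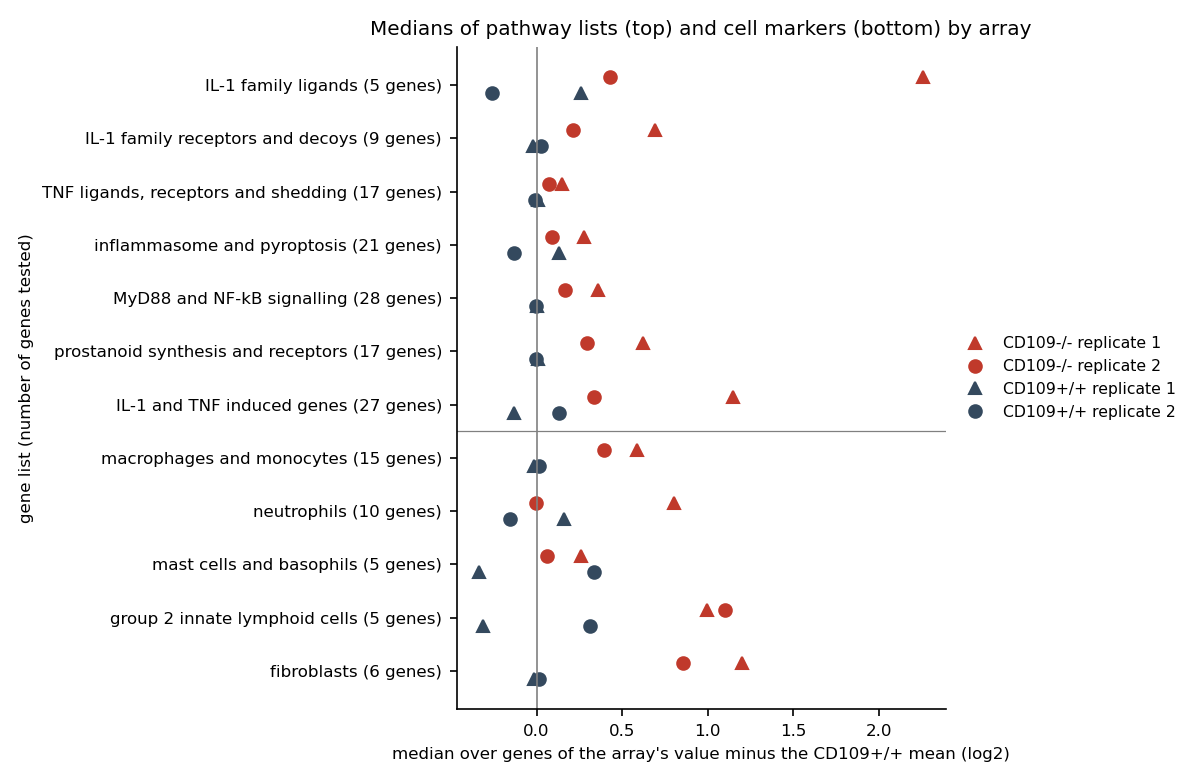
For each array, the median over a list's tested genes of the array's log2 value minus the CD109+/+ mean of that gene (horizontal axis), for the 7 pathway lists (above the line) and 5 cell marker lists (below it); triangles are replicate 1 and circles replicate 2, red CD109-/- and blue CD109+/+, and the blue points mirror each other around 0 by construction. CD109-/- replicate 1 stands farthest right of the arrays for all 7 pathway lists and for macrophage and monocyte, neutrophil and fibroblast markers. Its medians reach 2.26 for IL-1 family ligands, 1.15 for IL-1 and TNF induced genes, 1.20 for fibroblasts and 0.81 for neutrophil markers. Both red points lie close together for group 2 innate lymphoid cells (1.00 and 1.10).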

How the data were processed

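Lung tumour RNA of 4 samples was labelled with Cy3 from 100 ng and hybridised to 1-colour arrays, per the labels' protocols. The scanner files deposited by the authors hold linear intensity values from Agilent Feature Extraction 12.1.0.3, per the file headers, with the processed signal background-subtracted and not scaled between arrays. A second table deposited by the authors holds intensity values equal to that signal times 1 constant per array (1.04 and 1.08 for CD109-/-, 1.19 and 1.21 for CD109+/+), with column medians of 59.5 and 69.2 for CD109-/- and 58.8 and 76.1 for CD109+/+. It was neither centred nor logged, the labels and headers do not explain its constants, and it served as an alternative. Control spots and outlier spots (58 to 73 per array) were dropped and repeated spots averaged by probe. Log2 values were taken relative to the 75th percentile of the array's processed signal.

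Transcript accessions were matched to RefSeq genes (GRCm38.p6), which gave 34566 of 56605 probes a symbol; the files use another build, so only gene order was taken from it. Genotypes were compared over all 4 arrays without covariates by lmFit and eBayes (limma 3.58.1, run in R 4.3.3; 2 residual and 3.02 prior degrees of freedom), and the procedure was tested on simulated data. Genes named are the 10 genes with all probes, Cd109, 23 fixed pathway components, the 2 other genes with the lowest unadjusted p in each list, and markers beside a result. Others are named where they account for a list's untested members or, as Tnfaip6, passed the filter through 1 genotype only. The genes, the lists and the naming rule were chosen with earlier results of these data known, so their directions are descriptions. Background correction, normalization, the filter on dim probes, the variance model, a replicate block, a sex term, the probe standing for a gene and each left-out array were varied in turn. A genotype left with a single array took its spread from the other genotype in that fit.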

Additional observations from a re-analysis of the deposited data

How the results depend on the processing

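No slide block was run, since 1 slide scanned in 1 session held all 4 arrays, and normexp used the median spot signal. The labels give both genotypes replicates 1 and 2 but no shared origin, and same-numbered samples deviated together with r = 0.347 over 35769 probes. With the replicate block, 5 of the 14 probes of the 10 genes had an unadjusted p under 0.05 (3949 of all probes, against 2438 without the block), and with labelled sex as a covariate 2 had (Il1rl1 and Ptgs2, the second lower in CD109-/-, beside 8.21% of all probes), against 1. The sex covariate leaves CD109-/- replicate 2 against CD109+/+ and reversed both Tnf probes (-0.53 and -0.44) and Ptgs2 (-0.90). The Il1a value of -0.58 in that fit comes from a signal not well above background and shows no direction. Leaving out each array in turn gave 0 to 9 such probes, 6 to 13 probes without overlap (74.9% of all probes did not overlap when 13 did not), 9 to 13 higher probes, 9 to 33 pathway genes with an unadjusted p under 0.05 and 0 to 2 probes of the array past the adjusted threshold, the 2 without CD109-/- replicate 2. The highest counts of unadjusted calls came without CD109-/- replicate 2 and the lowest without CD109+/+ replicate 1. The share of such calls over all probes was highest and lowest in the same fits. Differences then ranged from -0.58 to 3.67 for Il1a, from -0.53 to 2.06 and from -0.44 to 0.72 for the Tnf probes, from -0.90 to 2.71 for Ptgs2, and from -0.36 to 1.01 and from -0.82 to 1.02 for the Il33 probes. The inflammasome median ranged from -0.12 to 0.28, negative without CD109+/+ replicate 2, that of receptors and decoys from 0.21 to 0.69 and that of MyD88 and NF-kB genes from 0.16 to 0.36 (0.23 with the mean of a gene's probes). The cause of these reversals was not tested. Under the other alternatives (normexp, quantile normalization, median scaling, the authors' values, no filter, signal on all 4 arrays and a mean-variance trend) each difference of the 14 probes kept its sign (with normexp Il1rl1 was 0.65, Il1a 0.77, the dimmer Il1rn probe 0.47 and the dimmer Il1b probe 1.14), and the counts of probes and pathway genes stayed within 1.5 times.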

Other observations

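Dendritic cell markers stood apart from the IL-1 ligands in how the CD109-/- tumours compared. Of 5 tested markers 4 were higher in CD109-/- tumours without overlap, beside 20.3% of all genes, and the list's median was 1.32. Relative to the CD109+/+ mean that median was 1.13 on CD109-/- replicate 1 and 1.54 on CD109-/- replicate 2. Clec9a, a receptor of cross-presenting dendritic cells, read -3.22 and -2.78 on the CD109-/- arrays and -4.27 and -4.36 on the CD109+/+ arrays (limma adjusted p = 0.569). Fibroblast markers were likewise higher on both CD109-/- arrays, by medians of 1.20 and 0.86, and alveolar macrophage markers by 0.64 and 0.65. The summed level of the alveolar macrophage markers overlapped, at 213.8 and 253.2 on the CD109-/- arrays and 221.7 and 140 on the CD109+/+ arrays. B cell markers were higher for 1 of 4, with a median of -0.10.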
